A study of Rattus norvegicus with 24 samples.

Results

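The genes of the extracellular matrix and of the TGF-beta pathway were examined in the lungs of rats that had inhaled hexanal, a straight-chain aldehyde formed when lipids oxidise. The set was defined by gene name, with no threshold on measured values, at a time when earlier results of these data were known. It holds 54 symbols for collagens, elastic fibre proteins, cross-linking enzymes, laminins and other basement membrane proteins, adhesive and matricellular proteins, proteoglycans, and the ligands, receptors and regulators of TGF-beta. A probe was given to a symbol when the accession in its array record mapped to that symbol, and 41 of the 54 genes had such a probe. Of these, 40 genes passed a filter on dim probes and were tested among 21253 genes or unnamed probes. Smad3, a carrier of the TGF-beta signal to the nucleus, was well above background on 1 of 24 arrays, in the 600 ppm group, and was not tested. The other 13 symbols, Col4a2, Col4a3, Col5a2, Col6a1, Col6a3, Col12a1, Fbln2, Lox, Lama2, Lama3, Nid1, Hspg2 and Tnxb, were not matched to a probe and were not analysed here.

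The 24 animals were Fischer-344 rats aged 7 to 8 weeks, in 4 groups of 6 with 3 males and 3 females in each. Control rats breathed filtered clean air and the exposed rats breathed hexanal at 600, 1000 or 1500 ppm, for 4 hours a day on 5 days of the week. The sources differ on the length of exposure (5 weeks in the labels, shorter in the study's methods) and on the unit, since the labels' protocol gives the target levels in mg/m3. Total RNA of lung tissue from each rat was labelled with Cy3 and hybridised to an Agilent one-colour array, so each value below comes from 1 rat. All 10 lung markers on the array, among them surfactant protein C and club cell secretoglobin, were well above background on every array.

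The extracellular matrix of the lung is made mostly by fibroblasts, smooth muscle cells and the cells that rest on basement membranes. Fibrillar collagens give tensile strength, elastic fibres give recoil, and lysyl oxidases cross-link both. TGF-beta is secreted in a latent complex bound to the matrix by latent TGF-beta binding proteins. Once released it binds paired serine/threonine kinase receptors, and the SMAD proteins then raise the transcription of collagens, fibronectin, connective tissue growth factor (Ccn2) and the feedback inhibitor Smad7. The pathway is known in the lung above all for its part in fibrosis. In RNA from whole tissue, fewer cells of a type and less RNA per cell cannot be told apart.

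Levels are given as the log2 of the background-subtracted signal minus the log2 of the 75th percentile of the same array, so that 0 is the level of that percentile and a negative value lies below it. The percentile itself ranged from 1701 to 3133 intensity units, between 70.7% and 81.7% of probes were well above background, and no spot was saturated. Arrays were spread over 6 slides of 4. Each slide held 1 sex, control rats shared slides with 600 ppm rats only, and no slide held both control and 1000 or 1500 ppm rats, so a slide effect could be removed only by a chain through the middle groups. Heart muscle transcripts varied between rats. The summed level of 11 heart muscle markers, relative to the percentile, ran from 3.55 to 39.5 in control, 5.18 to 65.7 at 600 ppm, 8.76 to 138 at 1000 ppm and 3.66 to 140 at 1500 ppm. All 10 tested were higher than control at every dose, with a median difference of 0.89 at 600 ppm, 2.21 at 1000 ppm and 0.64 at 1500 ppm.

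Each dose group was compared with the control group to ask whether inhaled hexanal altered these genes. The 3 comparisons share the same 6 control rats. No member was called at a 1.5-fold difference with an unadjusted p-value under 0.05 at any dose, where 0.616%, 1.64% and 1.22% of all genes were called in order of rising dose. No member passed a limma adjusted p-value of 0.05 (0%, 0.0188% and 0.00471% of all genes), and the methods' t-test called 0 members at each dose (0.409%, 1.41% and 0.885% of all genes). At an unadjusted p-value under 0.05 alone, limma gave 0 of 40 members at 600 ppm, 3 at 1000 ppm and 9 at 1500 ppm, against 4.33%, 8.99% and 6.97% of all genes. The 9 members at 1500 ppm are 22.5% of the 40. The count was 1 (Eln, which is not among the 9) with the slide as a fixed block and 3 as a random block. It was 2 without scaling and 5 without control rat 23 or 1500 ppm rat 37 or 38. The shares of all genes under these other settings are not given here, so these counts have no background beside them. Of the 9, 7 were higher (3.91% of all genes) and 2 were lower (3.06% of all genes), and of the 3 members at 1000 ppm, 2 were higher (5.34%) and 1 was lower (3.65%).

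On the log2 scale the median difference of the 40 members was 0.00, -0.02 and 0.03 in order of rising dose, beside -0.00, 0.00 and 0.01 over all genes. Members were divided nearly evenly by direction, with 20 higher and 20 lower at 600 ppm, 17 and 23 at the middle dose, and 22 against 18 for 1500 ppm (49.6%, 51.3% and 53.8% of all genes were higher). In the deposited values without scaling, where the median of all genes stood at 0.07, 0.11 and -0.05, the numbers higher were 26, 27 and 19. The 95% confidence interval lay wholly within a 1.5-fold change for 31, 28 and 27 members at the 3 doses in a model without slides. With the slide as a random block this held for 28, 27 and 24 members, and as a fixed block for 20, 12 and 9, so that for most of the set at 1000 and 1500 ppm the data do not resolve a change of that size once slides are fitted as fixed. In the model without slides, for the others, such as Spp1 and Ccn1, the interval reached past 1.5-fold.

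**Figure D1:**
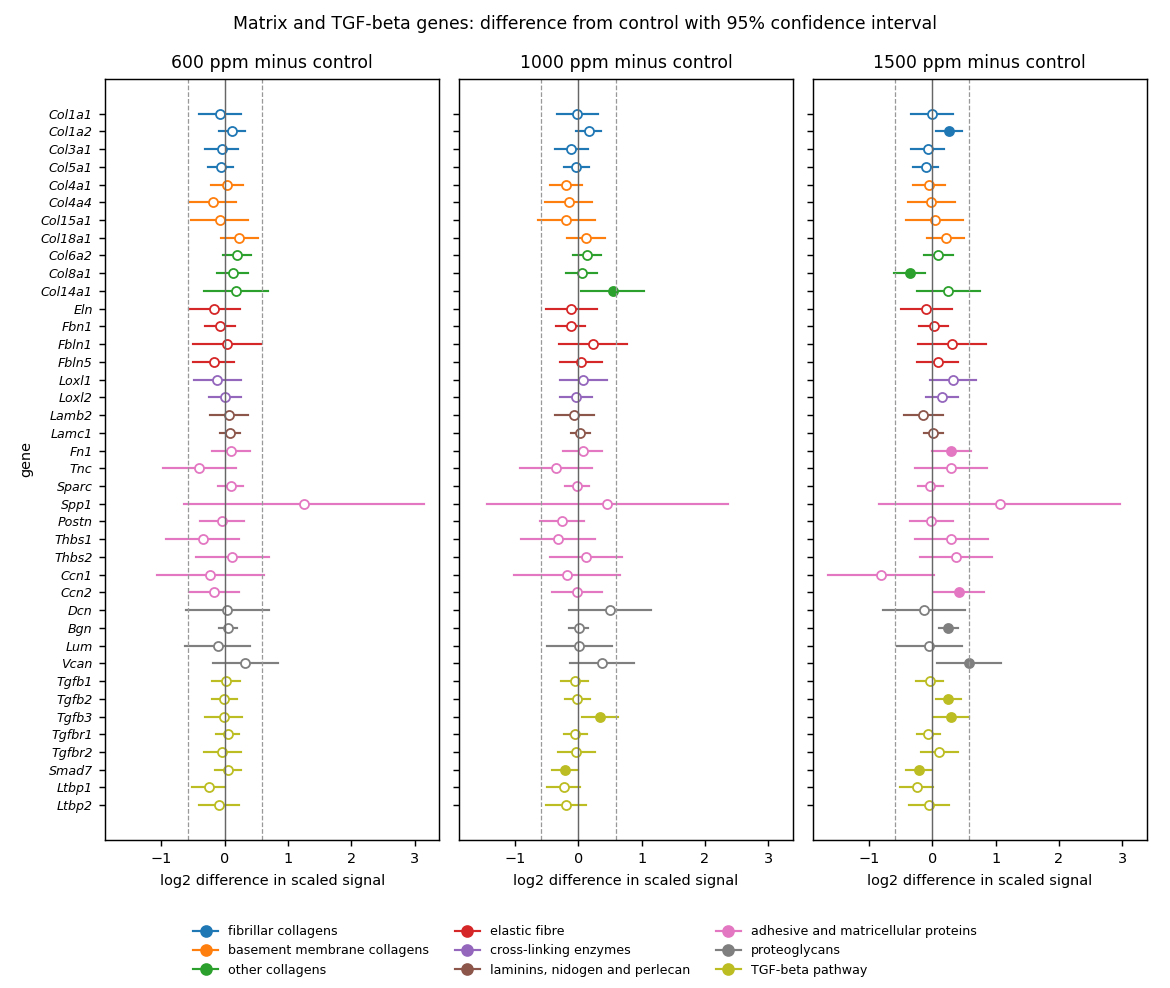
Difference of each hexanal group from control (log2 of scaled signal, x axis) for the 40 tested genes (y axis), coloured by role. Points are limma estimates over 24 rats and bars are 95% confidence intervals. Filled points have an unadjusted p-value under 0.05 (0, 3 and 9 genes) and dashed lines mark a 1.5-fold change. No filled point lies beyond the dashed lines, and Spp1 and Ccn1 have the widest bars.

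Fibrillar collagens form the load-bearing fibres of the lung. Col1a1 (NM_053304) ranged from 2.27 to 2.89 with a median of 2.64 in control rats and from 2.42 to 2.87 with a median of 2.54 at 1500 ppm. The ranges overlapped almost in full, and the difference was -0.08 at 600 ppm, -0.02 at 1000 ppm and -0.01 at 1500 ppm (95% confidence interval -0.34 to 0.32 at 1500 ppm). Col1a2 (NM_053356), the partner chain, had control values of 4.80 to 5.19 with a median of 5.05, and 1500 ppm values of 5.17 to 5.45 with a median of 5.21. Of the 6 rats at 1500 ppm, 4 lay above every control. The difference in Col1a2 was 0.12 at 600 ppm, 0.16 at 1000 ppm and 0.26 at 1500 ppm (SE 0.10, limma adjusted p = 0.606). An exact two-sided permutation test of the 1500 ppm and control rats gave p = 0.00649 for this single gene, with rats exchanged across slides. With the slide as a fixed block the difference was 0.11 (unadjusted p = 0.611 by limma) and as a random block 0.23 (unadjusted p = 0.0780 by limma). Col3a1, the type III chain of compliant tissue, differed by -0.05, -0.12 and -0.07 at the 3 doses, and Col5a1, which starts fibril assembly, by -0.06, -0.04 and -0.10.

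Among the other collagens, 1 gene was lower and 1 was higher at an unadjusted p under 0.05 in the model without slides. Col8a1 (NM_001107100), a short-chain collagen of vessel walls, ran from -2.80 to -2.31 with a median of -2.41 in control rats. At 1500 ppm it ran from -3.33 to -2.33 with a median of -2.81, and 3 of 6 rats lay below every control. The difference was -0.35 (SE 0.12, limma adjusted p = 0.513), while at 600 and 1000 ppm it was 0.13 and 0.05. With the slide as a fixed block the 1500 ppm difference in Col8a1 was -0.32 (unadjusted p = 0.285 by limma). Col14a1 (NM_001130548), a collagen that sits on the surface of fibrils, had control values between -0.89 and 0.48 (median -0.25) and 1000 ppm values between -0.01 and 0.54 (median 0.36). These ranges overlapped. Its difference was 0.54 at 1000 ppm (1.45-fold, SE 0.24, limma adjusted p = 0.531) and 0.26 at 1500 ppm, but a second probe of the gene gave 0.15 and -0.28. Without control rat 1 or 22, or 1000 ppm rat 11 or 32, Col14a1 passed the 1.5-fold call at 1000 ppm, and its difference was 0.17 with the heart muscle level as a covariate and 0.28 with the slide as a fixed block. Col6a2, a chain of the microfibrils around cells, differed by 0.19, 0.14 and 0.10. With the slide as a fixed block its difference at 600 ppm was 0.40 (unadjusted p = 0.00235 by limma, adjusted p = 0.816). As a random block it was 0.28 (unadjusted p = 0.0127 by limma, adjusted p = 0.903).

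No basement membrane collagen or laminin chain had an unadjusted p under 0.05 at any dose. Col4a1, a main chain of type IV collagen, differed by 0.04, -0.20 and -0.05 at the 3 doses in rising order, and a second Col4a1 probe gave 0.06, -0.02 and -0.19. Col4a4, a chain of the alveolar type IV network, differed by -0.19, -0.16 and -0.02. Col18a1, whose end fragment is endostatin, was higher by 0.23, 0.12 and 0.21, with an interval at 1500 ppm of -0.09 to 0.51, and Col15a1 differed by -0.08, -0.19 and 0.04. The laminin chains Lamb2 and Lamc1, which form the sheet on which epithelium rests, differed by -0.14 and 0.02 at 1500 ppm. A second Lamc1 probe gave 0.24, 0.16 and 0.26 at the 3 doses.

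Elastic fibre genes also gave no difference past a test. Eln (NM_012722), which encodes elastin, had control values from 3.51 to 4.01 with a median of 3.91 and 1500 ppm values from 3.50 to 3.88 with a median of 3.80. The ranges overlapped, with 2 of 6 exposed rats just below every control. The difference was -0.16, -0.11 and -0.09 at the 3 doses, and a second Eln probe gave -0.35, -0.31 and -0.53. With the slide as a fixed block the 1500 ppm difference turned to 0.75 (unadjusted p = 0.0384), so the direction of Eln at 1500 ppm is not settled. The microfibril gene Fbn1 differed by -0.07, -0.12 and 0.02. The fibulins, which join elastin to microfibrils, differed by 0.04, 0.23 and 0.31 for Fbln1 and by -0.17, 0.04 and 0.09 for Fbln5. Of the cross-linking enzymes, Loxl1 was 0.33 higher at 1500 ppm (95% confidence interval -0.04 to 0.70, limma adjusted p = 0.751) after -0.11 and 0.08 at the lower doses, and Loxl2 differed by 0.15.

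Proteoglycans held the difference with the smallest p-value of the set. Bgn (NM_017087) encodes biglycan, a small leucine-rich proteoglycan that binds collagen and TGF-beta. Control rats ran from 5.54 to 5.89 with a median of 5.81, 600 ppm rats from 5.63 to 5.92 (median 5.82), and 1000 ppm rats from 5.65 to 5.90 (median 5.74). At 1500 ppm the 6 rats ran from 5.92 to 6.09 with a median of 6.00. Every 1500 ppm rat therefore lay above every control rat, while the 2 lower doses overlapped with control. The difference was 0.26 (1.19-fold, SE 0.07, 95% confidence interval 0.11 to 0.40, limma adjusted p = 0.382) in a gene singled out after its values were seen. A second Bgn probe gave 0.14. The difference stayed between 0.22 and 0.29 when any 1 rat was left out, and with the slide as a fixed block it was 0.26 with an SE of 0.17. Among all genes, 0.312% were without overlap and higher at 1500 ppm, and 2 of the 40 members, Bgn and Tgfb2, were.

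Vcan, the large proteoglycan versican of provisional matrix, ran from -4.28 to -2.80 in control rats (median -3.41) and from -3.17 to -2.52 at 1500 ppm (median -2.92). Control rats were more scattered than exposed rats, and 2 of 6 rats at 1500 ppm lay above every control. The difference was 0.33 at 600 ppm, 0.37 at 1000 ppm and 0.58 at 1500 ppm (1.49-fold, SE 0.25, limma adjusted p = 0.674), just short of the 1.5-fold call. It was 0.29 after normexp background correction and 0.23 with the slide as a fixed block (unadjusted p = 0.694 by limma, and 0.13 as a random block), and Vcan passed the call when control rat 1, 21 or 22 or 1500 ppm rat 16, 17 or 18 was left out. A second Vcan probe gave 0.21, 0.14 and 0.33 at the 3 doses. With the mean of the probes the 1500 ppm difference in Vcan was 0.49 (unadjusted p = 0.0774 by limma). Dcn, which encodes decorin, a close relative of biglycan, differed by 0.04, 0.50 and -0.13, and Lum (lumican) by -0.11, 0.01 and -0.05.

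The adhesive and matricellular proteins held the most variable genes. Fn1 (NM_019143), fibronectin, ran from 3.41 to 4.02 with a median of 3.71 in control rats and from 3.63 to 4.29 with a median of 4.07 at 1500 ppm. The ranges overlapped, with 4 of 6 exposed rats above every control. The difference was 0.30 (SE 0.15, limma adjusted p = 0.716) after 0.09 and 0.06 at the lower doses, a second Fn1 probe gave 0.66, and with the slide as a fixed block it was 0.50 with an SE of 0.33. Ccn2 (NM_022266), connective tissue growth factor, ran from 2.06 to 2.61 in control rats (median 2.30) and from 1.96 to 3.40 at 1500 ppm (median 2.83). Of the 1500 ppm rats, 4 lay above and 1 below every control. The Ccn2 difference was 0.42 (SE 0.19, limma adjusted p = 0.692) and it was 0.05 with the slide as a fixed block. Tnc (tenascin C) differed by -0.40, -0.36 and 0.29 and Thbs1, an activator of latent TGF-beta, by -0.35, -0.32 and 0.30, with intervals that held 0 at every dose. Thbs2 was 0.37 higher at 1500 ppm (95% confidence interval -0.20 to 0.94). Sparc and Postn, which aid collagen assembly, differed by -0.03 and -0.01 at 1500 ppm.

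Spp1 (osteopontin, a secreted adhesion protein made by macrophages and epithelium) had the widest spread of the set, with an SD within groups of 1.67, at percentile 99.8 of all genes. In control rats it ran from -5.67 to -0.93 with a median of -3.19, and at 1500 ppm from -4.39 to 0.97 with a median of -2.81. The 4 groups overlapped over most of their range. The difference was 1.25 at 600 ppm, the highest estimate of the set at that dose, and 0.46 at 1000 ppm. At 1500 ppm it was 1.06, ranged from 0.43 to 1.53 on leaving out 1 rat, and had a 95% confidence interval of -0.83 to 2.96, so neither a rise nor a fall of 1.5-fold could be told from 0. The macrophage markers, a list that does not include Spp1, held no gene with an unadjusted p under 0.05 at any dose.

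**Figure D2:**
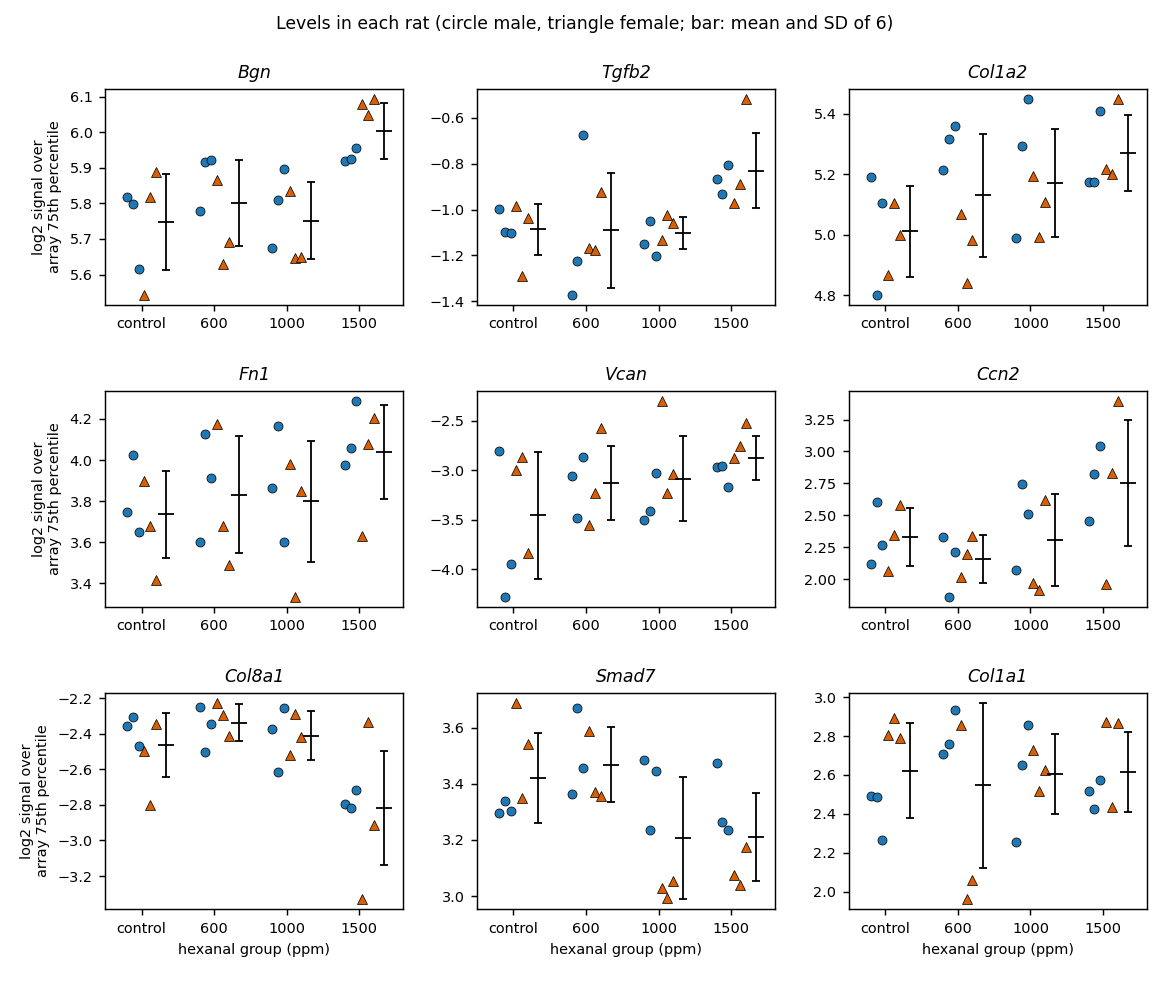
Level of 9 genes in each of the 24 rats (y axis, log2 signal over the 75th percentile of the array) by hexanal group in ppm (x axis). Circles are males, triangles are females, and bars show the mean and SD of 6 rats. In Bgn and Tgfb2 all 6 rats at 1500 ppm lie above the 6 control rats, whereas in Col1a1 the 4 groups overlap.

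Of the TGF-beta ligands, Tgfb2 and Tgfb3 were higher at the top dose at an unadjusted p under 0.05 and Tgfb1 was not. Tgfb2 (NM_031131) ran from -1.29 to -0.99 with a median of -1.07 in control rats, and from -0.97 to -0.52 with a median of -0.88 at 1500 ppm. Every rat at 1500 ppm lay above every control, by a narrow margin, and 600 and 1000 ppm rats overlapped with control. The difference was 0.26 (SE 0.10, 95% confidence interval 0.06 to 0.45, limma adjusted p = 0.603), again in a gene singled out after its values were seen. A second Tgfb2 probe gave 0.29, but with the slide as a fixed block the difference was 0.03 (unadjusted p = 0.911 by limma). Tgfb3 (NM_013174) ran from -1.14 to -0.49 in control rats (median -0.99), from -0.77 to -0.22 at 1000 ppm (median -0.58) and from -0.93 to -0.31 at 1500 ppm (median -0.66). These ranges overlapped. The differences were 0.34 (SE 0.14, limma adjusted p = 0.515) and 0.29 (SE 0.14, limma adjusted p = 0.706), and with the slide as a fixed block they were -0.10 and -0.22. Tgfb1 (NM_021578), the most widely studied ligand, differed by 0.02, -0.06 and -0.04, with an interval at 1500 ppm of -0.25 to 0.18.

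The receptors Tgfbr1 and Tgfbr2 differed by -0.06 and 0.11 at 1500 ppm, and a second Tgfbr2 probe gave 0.28. The binding proteins of the latent complex, Ltbp1 and Ltbp2, differed by -0.24 and -0.05. Ltbp1 was lower by a similar amount at every dose (-0.25, -0.23 and -0.24, unadjusted p = 0.0586, 0.0799 and 0.0657 by limma). With the slide as a fixed block the Ltbp1 difference at 600 ppm was -0.40 (unadjusted p = 0.0136 by limma, adjusted p = 0.904). As a random block it was -0.32 (unadjusted p = 0.0166 by limma, adjusted p = 0.903). Smad7 (NM_030858), the feedback inhibitor, ran from 3.30 to 3.69 with a median of 3.34 in control rats, from 2.99 to 3.48 (median 3.14) at 1000 ppm and from 3.04 to 3.47 (median 3.21) at 1500 ppm. Of 6 rats, 4 at 1000 ppm and 5 at 1500 ppm lay below every control. The difference was -0.21 at both doses (SE 0.10, limma adjusted p = 0.543 and 0.707), and it was -0.04 and -0.07 after normexp background correction, where the median of all genes stood at -0.12 and -0.05, so that relative to that median Smad7 was no longer lower at 1000 ppm.

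Split by sex, Smad7 at 1500 ppm differed from control by -0.43 in females and by 0.01 in males, as means of 3 rats, and at 1000 ppm by -0.50 and 0.08. Control and 1500 ppm rats of each sex lay on different slides, so this comparison also sets slides against slides. The test of the difference between the sexes at 1500 ppm, fitted without slides, gave -0.44 (SE 0.14, 95% confidence interval -0.74 to -0.14). It missed the threshold (limma adjusted p = 0.0815). Without control rat 22 it passed. Tgfb1 differed by 0.13 in males and by -0.21 in females (difference between the sexes -0.35, SE 0.13, limma adjusted p = 0.141). These are the only members with an unadjusted p under 0.05 in this test, 5% of the 40 against 20.2% of all genes, and 0 members passed the adjusted threshold that 5.03% of all genes passed.

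A slope on dose was fitted to ask whether levels moved steadily from control to 1500 ppm. It passed the adjusted threshold for 0 members and 3 genes in all (0.0141%). At an unadjusted p under 0.05 it picked out 8 members (8.49% of all genes), 6 positive (4.75%) and 2 negative (3.74%). Ccn2, Bgn, Tgfb2, Col1a2, Tgfb3 and Vcan had positive slopes, from 0.15 per 1000 ppm for Bgn and Tgfb2 to 0.37 for Vcan, and Smad7 and Col8a1 had slopes of -0.17 and -0.22. In Bgn, Tgfb2, Ccn2 and Col8a1 the estimates at 600 and 1000 ppm lay between -0.17 and 0.13, and none of these had an unadjusted p under 0.05.

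Markers of smooth muscle had positive estimates in the same groups, and none passed the adjusted threshold. All 6 markers of smooth muscle and myofibroblasts tested were higher at 1000 ppm, 5 of them at an unadjusted p under 0.05 (Cnn1, calponin, alone past the 1.5-fold call, at 0.60), and all 6 were higher at 1500 ppm, 2 of them at that p (Acta2, smooth muscle actin, by 0.36 and Actg2 by 0.37). Their summed level relative to the percentile ran from 16.0 to 25.7 in control, 21.6 to 30.9 at 1000 ppm and 20.5 to 27.4 at 1500 ppm. Of 6 fibroblast markers, 4 were higher and 2 lower at 1000 ppm (median 0.22), and 3 were higher and 3 lower at 1500 ppm (median -0.05). Pi16 alone of these was called, 1.38 higher at 1000 ppm, where 1.64% of all genes were called. All 4 fat cell markers tested were higher at 1000 ppm (median 0.34), and the fat cell hormone Adipoq alone of these was called, 2.66 higher. All 4 were also higher at 1500 ppm (median 0.51), with Adipoq 1.77 higher, and none was called there. With the heart muscle level as a covariate no member had an unadjusted p under 0.05 at 1000 ppm. At 1500 ppm Bgn then differed by 0.25 and Tgfb2 by 0.26, while Smad7 and Tgfb3 no longer passed that threshold (unadjusted p = 0.0730 and 0.0729 by limma). The part of smooth muscle, fat and fibroblast transcripts in the differences of the matrix genes was not tested.

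Ccn1 (NM_031327), a matricellular protein of the same family as Ccn2 and a rapidly induced gene, had the lowest estimate of the set at 1500 ppm. Control rats ran from 1.51 to 3.95 with a median of 3.31 and 1500 ppm rats from 1.32 to 3.70 with a median of 1.82. The groups overlapped over most of their range, with 2 of 6 exposed rats below every control. The difference was -0.81 (SE 0.40, 95% confidence interval -1.65 to 0.03, limma adjusted p = 0.732), and -0.23 and -0.19 at the lower doses. With the slide as a fixed block it was -1.69 with an SE of 0.95. Ccn1 passed the 1.5-fold call without control rat 1 or 3 or without 1500 ppm rat 38. Of 14 early-response genes, which are transcribed within minutes of a stimulus, 12 had negative estimates at 600 ppm (median -0.25), 12 at 1000 ppm (median -0.19) and 11 at 1500 ppm (median -0.71). None was called at the lower doses and 7 were at 1500 ppm, where 1.22% of all genes were, among them Fos at -2.42, and none passed the adjusted threshold. Their summed level ran from 40.3 to 111 in control rats and from 33.3 to 52.9 at 1500 ppm.

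Across the 24 rats, taken as deviations from the group means, 3 planned pairs of members were compared. Col1a1 and Col3a1 varied together from rat to rat (Pearson r = 0.796, Spearman rho = 0.781, permutation p adjusted over the 3 pairs = 3e-05 for r). The relation held within males (0.702), within females (0.876), with slide means removed (0.793) and without the 2 rats farthest from the median (0.704). Col1a1 and Col1a2 gave r = 0.587 and rho = 0.596 (permutation p adjusted over the pairs = 0.00259), 0.679 in males, 0.715 in females, 0.677 with slide means removed and 0.445 without 2 rats. Ccn1 and Ccn2 gave r = 0.645 and rho = 0.595 (permutation p adjusted over the pairs = 0.00117), 0.543 in males, 0.852 in females, 0.583 with slide means removed and 0.609 without 2 rats. As a description, with no test because these genes were looked at after their values were seen, Ccn1 followed Fos with r = 0.918, Btg2 with 0.906, Junb with 0.860 and Egr1 with 0.844 over the same 24 rats. Klf4 gave 0.253 and Dusp1 0.469, and with slide means removed in place of group means these were 0.586 and 0.689. Other weak relations fell on that change: Fosb from 0.444 to 0.259, Atf3 from 0.404 to 0.263 and Egr3 from 0.285 to 0.024. The points share arrays and the scaling of each array.

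**Figure D3:**
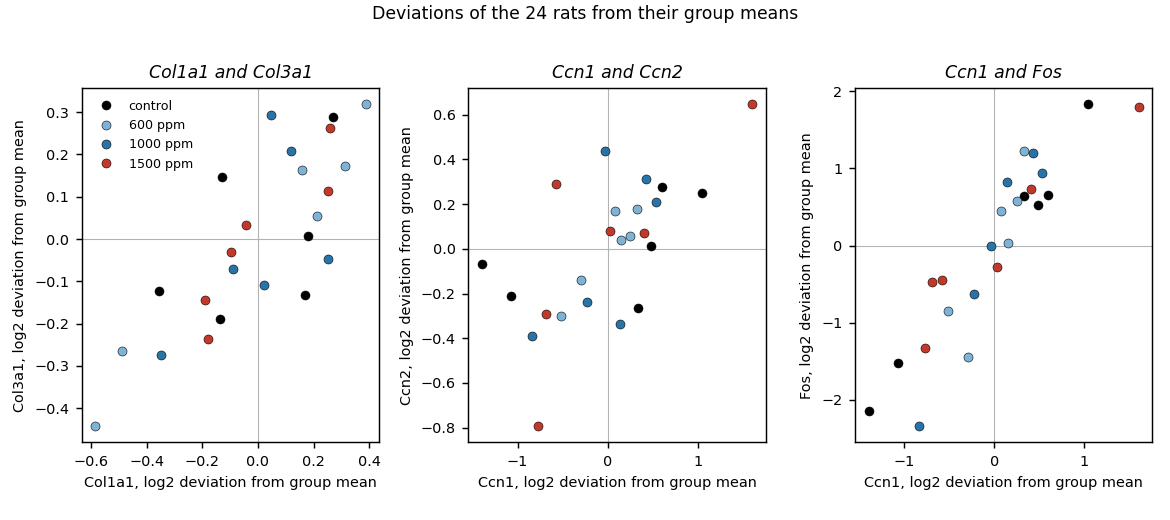
Deviation of each of the 24 rats from its group mean (log2 scale) for Col1a1 against Col3a1 (r = 0.796), Ccn1 against Ccn2 (r = 0.645) and Ccn1 against Fos (r = 0.918, a description only). Each point is 1 rat, coloured by hexanal group, and points of every group lie along the same diagonal.

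The promoters of Ccn1 and Ccn2 are shown because the pair varied together from rat to rat while their estimates at 1500 ppm had opposite signs (-0.81 and 0.42). Each is the 250 bases before the annotated transcription start in RefSeq, on build GRCr8, written 5′ to 3′ on the strand of the gene. Capitals mark matches to GGAATG (the TEAD element, CATTCC when read on the opposite strand), TATAAA (the TATA box) and GGGCGG (the GC box, CCGCCC on the opposite strand). Ccn1 lies at chr2:237225690-237225939 and Ccn2 at chr1:22624615-22624864, both on the minus strand.

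Ccn1: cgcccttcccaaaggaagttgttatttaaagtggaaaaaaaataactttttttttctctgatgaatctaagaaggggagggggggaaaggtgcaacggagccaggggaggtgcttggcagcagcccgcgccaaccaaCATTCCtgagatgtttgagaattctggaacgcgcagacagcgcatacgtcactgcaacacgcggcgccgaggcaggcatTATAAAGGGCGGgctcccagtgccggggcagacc
Ccn2: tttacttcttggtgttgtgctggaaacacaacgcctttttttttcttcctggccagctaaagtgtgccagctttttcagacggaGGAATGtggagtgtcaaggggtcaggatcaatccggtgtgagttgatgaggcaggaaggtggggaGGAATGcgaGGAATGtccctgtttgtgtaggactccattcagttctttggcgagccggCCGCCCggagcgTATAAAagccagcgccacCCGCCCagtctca

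Both windows held a TATA box close to the start, from 34 to 29 bases before it in Ccn1 and from 31 to 26 in Ccn2, a match that 12.9% of 33469 rat promoters of this length hold. In Ccn1 the GC box follows the TATA box without a gap, so their capitals run together. The TEAD element was found once in Ccn1, on the opposite strand from 113 to 108 bases before the start, and at 3 places in Ccn2, from 166 to 161, 101 to 96 and 92 to 87 (12.1% of promoters hold it at least once). Ccn2 held the GC box at 2 places on the opposite strand (30.5% of promoters). The CArG box, TGANTCA (the AP-1 element) and CCAAT were also searched on both strands, and these letters are not in either window (1.5%, 6.34% and 34% of promoters). No matches overlapped. A match is a description of the letters and not evidence of binding.

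Between the sexes, unlike between doses, some members passed the adjusted threshold. Over all 24 rats, 6 members had a limma adjusted p-value under 0.05 between females and males and all 6 were lower in females. That is 15% of the 40 members, against 24.9% of all genes in either direction and 9.34% in the direction of lower in females. Of the 40, 32 were lower in females, while 55.4% of all genes were higher. Dcn (NM_024129) had a mean of 2.01 in males and 1.39 in females, a difference of -0.63 (SE 0.18, limma adjusted p = 0.0159), and is the only one of the 6 past 1.5-fold (3.93% of all genes at an unadjusted p under 0.05). Lamb2 (NM_012974), the beta 2 laminin chain, had means of 2.27 and 1.90 (-0.37, SE 0.07, limma adjusted p = 0.000658). Along the TGF-beta pathway the ligand Tgfb1 was lower in females by 0.23 on the log2 scale (-0.23, limma adjusted p = 0.00365), the receptor Tgfbr1 by 0.19 (-0.19, limma adjusted p = 0.00764), and the latent binding proteins Ltbp2 and Ltbp1 by 0.28 and 0.22 (-0.28 and -0.22, limma adjusted p = 0.0335 and 0.0439). Since no slide mixed males with females, the slide could not be a fixed block here, and an effect of sex and of slide cannot be told apart. With the slide as a random block Lamb2, Tgfb1 and Tgfbr1 kept an adjusted p-value under 0.05 (0.00712, 0.0197 and 0.0386 by limma), where 13.3% of all genes did, and the other 3 did not.

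**Figure D4:**
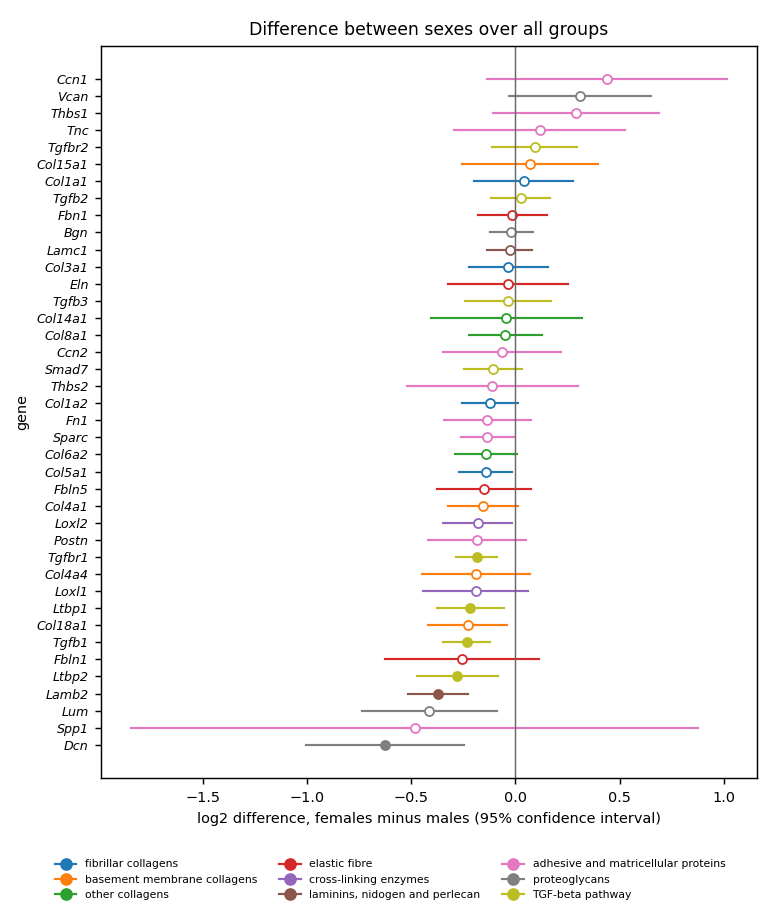
Difference between females and males over all 24 rats (x axis, log2 of scaled signal, females minus males) for the 40 genes (y axis), coloured by role, with 95% confidence intervals. Filled points have a limma adjusted p-value under 0.05. All 6 filled points lie below 0, with Dcn at -0.63 the lowest.

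The spread between rats of the same group limited what could be seen, and so did the layout of the slides. At 1500 ppm the median SE of the members was 0.147 without slides and 0.319 with the slide as a fixed block. Groups held both sexes, so the SD within groups also counts any difference between males and females. The median SD within groups was 0.260 over the members and 0.233 over all genes. It was lowest for Bgn (0.113) and Lamc1 (0.119) and highest for Spp1 (1.67), Ccn1 (0.736), Dcn (0.569), Thbs1 (0.506) and Tnc (0.50). A difference of 0.26 was thus more than 2 times the SD of Bgn, and smaller than the SD of Dcn, Tnc or Ccn1.

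Other genes of the same pathways, taken from 8 lists that hold none of the 54 symbols, were read in the same way. For all genes, 4.33%, 8.99% and 6.97% had an unadjusted p under 0.05 in order of rising dose. The shares called were 0.616%, 1.64% and 1.22%, and the genes named from these lists were picked by such thresholds or by size. Of 30 other TGF-beta and BMP pathway genes tested, 1 was called: Bmpr1b, a BMP receptor, was 0.59 higher at 1000 ppm (SE 0.21, limma adjusted p = 0.515). Inhbb, an activin subunit, was higher at an unadjusted p under 0.05 at 600 and 1000 ppm (0.28 and 0.21) and Bmp4, a ligand, was lower at 1000 ppm (-0.19). The median difference of that list was 0.03, -0.01 and 0.02 at the 3 doses. Among 11 TGF-beta target genes, none was called, and at 1500 ppm 4 were higher and 7 lower with a median of -0.01. Cdkn2b, a cell cycle inhibitor, and Id1, a BMP target, were lower at an unadjusted p under 0.05 (-0.43 and -0.34). Of 14 collagen processing enzymes, P4ha1 and P4ha2, which hydroxylate prolines of collagen, and Plod1, which hydroxylates lysines, were higher at 600 ppm at an unadjusted p under 0.05 (0.37, 0.26 and 0.21) and P4ha3 was lower (-0.33, and -0.33 at 1000 ppm). At 1500 ppm only Pcolce, an enhancer of procollagen cleavage, was higher at that p (0.28).

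Of 13 matrix receptors tested, Itga1, a chain of a collagen receptor, was lower at 600 and 1000 ppm at an unadjusted p under 0.05 (-0.24 and -0.26). Itgb3, the beta chain of a vitronectin receptor, was lower at 1000 and 1500 ppm at that p (-0.19 and -0.27), and Ddr2, a collagen receptor kinase, was higher at 1500 ppm (0.17). Of 11 other elastic fibre genes, Loxl4 was 0.55 higher at 1500 ppm and Emilin1 0.18 lower (-0.18) at that p. The other collagens (8 tested), other basement membrane genes (7 tested) and other matricellular genes and proteoglycans (16 tested) held no called gene. At an unadjusted p under 0.05, Col11a2 was higher (0.54) and Col7a1 lower (-0.29) at 1000 ppm, and Col5a3 (-0.26) and the proteoglycan Omd (-0.39) were lower at 1500 ppm. The largest estimates at 1500 ppm in these lists were 0.45 for Col9a2, -0.23 for Nid2 and 0.67 for Ccn4, which missed the unadjusted threshold.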

How the data were processed

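Lung RNA of 24 rats was measured on one-colour arrays. The authors deposited Feature Extraction 11.5.1.1 files per the file headers, whose processed signal is an intensity already background-subtracted within the array and not scaled between arrays, and a table of the same intensities (equal within 0.1% for at least 99.69% of probes on every array). Control spots and outlier flags were left out (650 probe values), spots of a probe were averaged (42877 spots, 30367 probes), and log2 signal minus the array's 75th percentile was used. A probe was kept if 5 or 6 of the 6 arrays in some group had it well above background (23614 probes), with the brightest probe standing for a gene, and 11 members had 2 probes. Accessions were matched to RefSeq symbols (18355 probes, 60.4%, 15443 symbols). R 4.3.3 with limma 3.58.1 (lmFit, eBayes, Benjamini-Hochberg over all 21253) gave the tests (tables were read with data.table, version 1.17.8), with exact two-sided permutation tests of 6 against 6 rats for single genes and 100000 permutations for correlations. The script was tested on simulated data. No 2 arrays were identical (highest correlation 0.989). The number of arrays limits the precision.

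The members and the lists were chosen with earlier results of these data known. Values by group are given for members past a threshold in any comparison, the member of each of 9 role lists with the largest estimate at 1500 ppm, the genes of the pairs, and Eln, Fn1, Tnc, Spp1, Tgfb1, Tgfbr2 and Smad7. Bgn, Tgfb2 and Col14a1 were added after their values were seen, as were the pathway genes with an unadjusted p under 0.05. Of 6 planned pairs, 3 had both genes on the array. Alternatives were normexp background correction (offset 50, on median spot signals), quantile and array median scaling, the deposited table without scaling, other probe filters, the mean of a gene's probes, the methods' t-test, 1 dose at a time, slide blocks (fixed or random), a covariate for sex, and leaving out each rat. Leaving out rats 7, 36 and 38 (the arrays with the lowest percentile or fewest probes above background), the heart muscle level as a covariate and the counts at an unadjusted p were added after seeing the data. All arrays were scanned on 1 day.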

Additional observations from a re-analysis of the deposited data

Results flagged for a closer look

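Within groups of 6 rats, 4 values stood apart, by a gap to the nearest rat that was large for the range of the group, among 116 groups tested for 29 genes. Chance flags about 1 in 20 groups. Col4a4 in 600 ppm rat 7 was the highest of its group at 0.16, with the next rat at -0.39 (gap over range 0.689). Tgfb3 in 600 ppm rat 26 was the lowest at -1.49, with the next at -0.88 (0.778). Fbln1 in 1500 ppm rat 18 was the lowest at -2.10, with the next at -1.68 (0.648). Tgfb2 in 1500 ppm rat 38 was the highest at -0.52, with the next at -0.81 (0.636). The difference in Tgfb2 at 1500 ppm over all leave-one-out settings ranged from 0.19 to 0.28.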

How the results depend on the processing

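No paired analysis was possible because rat numbers are not shared between groups. The count of called members, 0 at every dose, was 1 at 1000 ppm in the deposited table without scaling (Col14a1), and at 1500 ppm it was 1 in that table (Ccn1), 1 with the slide as a fixed block (Eln) and 1 without rats 7, 36 and 38 (Ccn1). Leaving out 1 rat gave 0 to 1 at 600 ppm (Tnc without control rat 2), 0 to 2 at 1000 ppm (Col14a1 and Dcn) and 0 to 2 at 1500 ppm (Ccn1 and Vcan). The count at an unadjusted p under 0.05 at 600 ppm, 0 as reported, was 1 with normexp (Lamc1), 1 with sex as a covariate, 1 without rats 7, 36 and 38 (both Ltbp1), and 2 with the slide as a fixed or random block (Col6a2 and Ltbp1), and leaving out 1 rat gave 0 to 2. At 1000 ppm that count, 3, was 1 with the slide as a fixed block (Col6a2) and 0 with the heart muscle covariate, and 0 to 4 on leaving out 1 rat, with 0 without control rat 21 or 23 or 1000 ppm rat 33. At 1500 ppm that count, 9, was 2 without scaling, 1 with the slide as a fixed block and 3 as a random block (Bgn, Col8a1 and Smad7), and 5 to 10 on leaving out 1 rat, with 5 without control rat 23 or 1500 ppm rat 37 or 38. The difference in Eln at 1500 ppm turned to 0.75 with the slide as a fixed block. The shares of all genes under these settings are not given here. The cause of these changes was not tested.

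The members that differed between the sexes, 6, were 11 with array median scaling, 16 without scaling and 3 with the slide as a random block, and 4 to 8 on leaving out 1 rat. Of all genes, 24.9% passed in the model as reported and 13.3% with the slide as a random block. The shares under the other settings are not given here, so those counts have no background beside them. Members with a dose trend stayed at 0 on leaving out any rat (0 to 0), and those whose 1500 ppm difference varied with sex were 0 to 1 (Smad7 without control rat 22). The 3 correlations kept their sign and their side of the threshold under every scaling, with r between 0.515 and 0.698 for Col1a1 and Col1a2, 0.767 and 0.804 for Col1a1 and Col3a1, and 0.583 and 0.665 for Ccn1 and Ccn2. Of 1566 values of single genes under the alternatives that keep all rats or leave out rats 7, 36 and 38, 1449 stayed on their side of the threshold with the same sign, 97 below the threshold changed sign, 8 lost and 11 gained a call, and 1 reversed. Bgn, Tgfb2, Col1a2 and Col8a1 at 1500 ppm kept an unadjusted p under 0.05 whichever rat was left out. With the slide as a fixed block their unadjusted p by limma was 0.148, 0.911, 0.611 and 0.285. As a random block it was 0.0106, 0.114, 0.0780 and 0.0367. Without rats 7, 36 and 38 Col8a1 differed by -0.20 (unadjusted p = 0.0694 by limma). Probes near background, such as Thbs1, Thbs2 and Lum, limit what the arrays resolve.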
